A study of Mus musculus with 5 samples.

Results

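Dexamethasone was set against a chitinase-1 inhibitor in lungs of mice that had received both airborne particles and an allergen, by comparing the PM10/OVA/Dex library with the PM10/OVA/CPX library. These are 2 of the 5 whole-lung RNA sequencing libraries of the series, chosen by their treatment labels and not by any measured value. All 5 came from female BALB/c mice of genotype WT and stand for 1 group each, without replicates. The control library carries no exposure in its labels. The PM10 library came after PM10, inhalable particulate matter, put into the nose 4 times over 2 weeks. The PM10/OVA library came after the same PM10 together with ovalbumin (OVA, an egg protein used as an allergen), which was injected into the abdomen and later given through the nose. Both treated groups shared the PM10 and the OVA. The inhibitor, CPX in the labels, was injected into the abdomen 6 times over 3 weeks, whereas dexamethasone (Dex, a synthetic glucocorticoid) was injected 3 times in the last week, so the schedules of the 2 agents also differ. The lungs were collected 2 days after the final challenge. The sources used here give no doses or ages and do not say whether a library pooled several animals. No group analysed here received PM10 and OVA with the vehicle of either agent alone, as far as the labels say.

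Glucocorticoids act through the glucocorticoid receptor, a nuclear receptor that enters the nucleus once bound, binds DNA and raises transcription of genes such as Per1, Tsc22d3 and Fkbp5, while it restrains many inflammatory genes. Chitinases of the glycosyl hydrolase family cleave chitin, and their chitinase-like relatives have kept the fold but lost the enzyme activity. In mouse lung, the chitinase-like proteins Chil3 (Ym1) and Chil4 (Ym2) come from macrophages and airway epithelium and are known as products of type 2 immunity, the IL-4 and IL-13 driven response in which goblet cells make mucus and eosinophils enter the tissue.

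The CPX library held 12612578 counts and the Dex library 11993222, and the other 3 libraries between 12038105 and 16929068. Of 23183 gene symbols, 14305 had a mean of at least 1 CPM (a count scaled to a common library size) over the 5 libraries and are called measured. The lung identity of both libraries was checked by Sftpc, the surfactant protein gene of alveolar type 2 cells, at 13413 CPM in CPX and 13741 CPM in Dex, and by Sftpb, Ager, Scgb1a1, Foxj1 and Pecam1, none of which was under 50 CPM in either library. On the log2(CPM + 1) scale used for every log2 ratio here, Dex minus CPX, 151 measured genes were at least 2-fold higher in the Dex library (1.06%) and 105 at least 2-fold lower (0.734%). The median over all measured genes was -0.01. The 95% counting interval of the CPM ratio excluded 1 for all 151 and all 105. These genes were chosen by a 2-fold gap in the same counts. At these depths that choice itself leads to intervals that exclude 1, so they give no separate support. Such intervals cover the error of counting reads in these 2 libraries and not the differences between mice, which 1 library a group cannot show, so no test between the treatments is possible. Just inside the 2-fold bounds lay Gria1 (1.01) and Nek2 (-1.001), and just outside lay Apod (0.996) and Ccsap (-0.997).

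**Figure D1:**
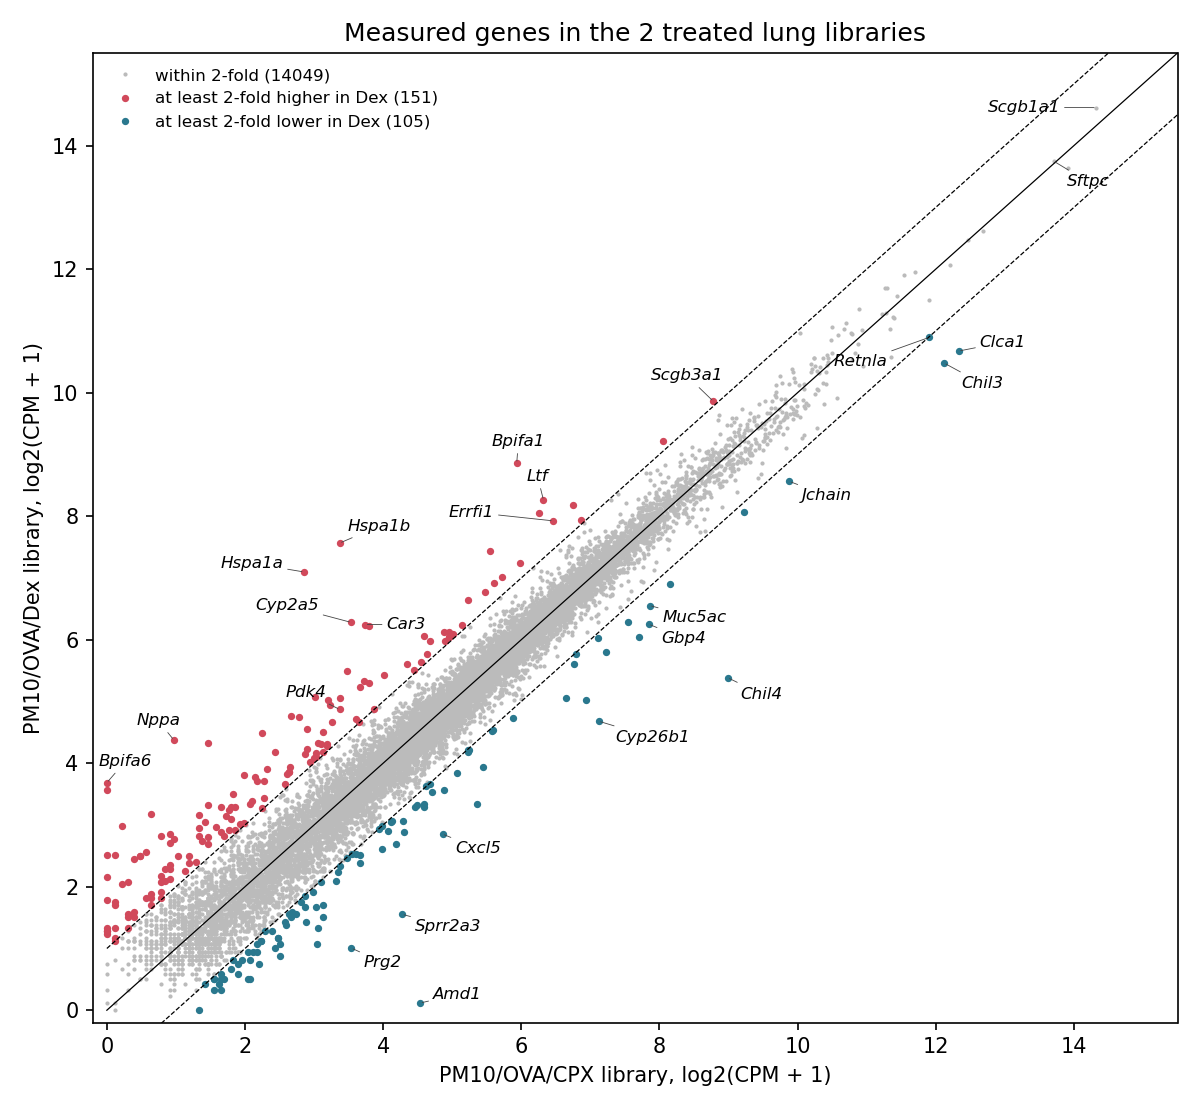
Level of each measured gene in the PM10/OVA/CPX library (horizontal axis) and the PM10/OVA/Dex library (vertical axis), both as log2(CPM + 1), with the solid line at equality and dashed lines at 2-fold. The 151 red points are higher and the 105 blue points lower in Dex, and the 14049 grey points lie within 2-fold.

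The levels in the other 3 libraries differed between these genes. Choosing genes for a higher level in Dex itself favours those lowest in CPX or highest in Dex. Each count is therefore set beside the same count over all 6815 genes with a ratio above 0 or all 7490 below 0. These match the sign of the ratio but not its size, and a wide gap also favours such extremes and a PM10/OVA level in between. How much of any excess follows from the selection was not tested. Of the 151 higher in Dex, 113 (74.8%) had their lowest level of all 5 libraries in CPX, against 42.2% of all genes above 0. Their highest level was in Dex for 43 (28.5%, against 34.4%) and in the control for 101 (66.9%, against 34.8%). Of the 105 lower in Dex, 60 (57.1%) had their highest level in CPX, against 39.7% of all genes below 0. Their lowest level was in Dex for 61 (58.1%, against 33.6%). The PM10/OVA library lay between the treated libraries for 117 of the 151 and 62 of the 105, and for 33.7% of all measured genes. Against PM10/OVA itself, 401 genes (2.8%) were at least 2-fold away in Dex and 200 (1.4%) in CPX, in either direction, and both of these comparisons share the PM10/OVA library.

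The chitinase family was lower in Dex than in CPX. All 6 measured members of 7 listed had log2 ratios below 0, 3 of them past 2-fold, with a median of -0.96. Chil4 was at 0 CPM in the control and in PM10, 3.53 with PM10/OVA, 507 in CPX and 40.8 in Dex. Chil3 was at 108, 309, 510, 4455 and 1427 CPM across these libraries. Both genes were thus highest in CPX and second highest in Dex, with the 3 libraries that had neither agent below them. The Dex level was 12.4-fold lower than CPX for Chil4 (95% counting interval 11.3 to 13.7) and 3.12-fold lower for Chil3 (3.07 to 3.18). The 2 genes are near-identical, and how reads shared between them were counted is not given, so their separate values are uncertain. In RNA of whole lung, fewer cells that express a gene and less of its RNA per cell cannot be told apart, here and in all that follows.

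Chia1, the acidic mammalian chitinase of airway and stomach, was at 79.9 CPM in the control, 57.9 with PM10, 157 with PM10/OVA, 596 in CPX and 268 in Dex. It was 2.22-fold lower in Dex than in CPX (2.13 to 2.32), again with CPX highest. By GENCODE on GRCm38, Chia1 (chr3:106113229-106132120, plus strand) lies beside Chil3 (chr3:106147554-106167564) and Chil4 (chr3:106201490-106219507), both on the minus strand. Chil1 (chr1:134182176-134190181, plus strand), which encodes the chitinase-like lectin known as BRP-39 or, in humans, YKL-40, ordered the libraries in another way. It was at 499 CPM in the control, 2065 with PM10, 3067 with PM10/OVA, 2611 in CPX and 1533 in Dex, so that both treated libraries lay below PM10/OVA. Its Dex level was 1.70-fold lower than in CPX (1.67 to 1.73). Chit1, the gene of chitinase-1 itself and so the named target of the inhibitor, had 0 counts in all 5 libraries. If its reads could be counted, this allows a level of up to 0.24 CPM in CPX and 0.252 CPM in Dex. Hbb-bs, a red cell gene, also had 0 counts in all 5. Whether reads of either symbol could be counted was not tested. The 2 other listed members, Ctbs (the lysosomal enzyme di-N-acetylchitobiase) and Chid1, had ratios of -0.02 and -0.01.

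The DNA just upstream of Chil3 and Chil4 is shown because these near-copies were both lower in Dex and each holds 1 match to ACANNNTGT, the spaced half-site core of the palindrome that the glucocorticoid receptor is known to bind. Capitals mark the match. The windows are reference sequence from RefSeq on build GRCm38.p6, minus strand, at chr3:106167565-106167814 for Chil3 and chr3:106219508-106219729 for Chil4, and they end at the last base before the gene as GENCODE annotates it.
Chil3: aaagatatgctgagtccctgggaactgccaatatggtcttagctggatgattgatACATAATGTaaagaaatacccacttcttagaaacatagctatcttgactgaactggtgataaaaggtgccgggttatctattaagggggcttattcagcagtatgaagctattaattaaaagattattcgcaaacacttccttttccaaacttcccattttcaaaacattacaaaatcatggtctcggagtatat
Chil4: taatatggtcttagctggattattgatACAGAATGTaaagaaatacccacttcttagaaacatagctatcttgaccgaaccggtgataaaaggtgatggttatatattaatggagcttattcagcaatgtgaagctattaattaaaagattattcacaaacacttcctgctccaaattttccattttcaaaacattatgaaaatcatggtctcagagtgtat
The match begins 195 bases before the gene in both windows. Of 220 bases that align between them, 201 are identical (91.4%), so the 2 matches are not separate observations. Among measured genes with an entry in the promoter table (300 bases, of which 50 lie after the start), ACANNNTGT occurred in 589 of 10809 (5.45%). It occurred in 6 of 110 genes higher in Dex (5.45%) and in 7 of 73 lower in Dex, namely Ccr3, Chia1, Chil3, Chil4, S100a8, Serpina3f and Serpina3i (9.59%). Serpina3f and Serpina3i also belong to a family of close copies, so their matches may not be separate observations either. Of all 37 genes on the glucocorticoid-induced list, measured or not, 31 had an entry. ACANNNTGT occurred in 6 of these 31 (19.4%), of which Galnt15 was 2-fold higher in Dex. The other pattern searched, TTC and GAA 4 bases apart, the form that STAT6 is known to bind, was in 686 of the 10809 (6.35%), 3 of the 110, 7 of the 73 and 5 of the 31. Both patterns read the same on both strands. A match describes letters and not binding. In the other direction, the highest-ranked gene with either pattern was Pln, whose product phospholamban restrains the calcium pump of heart muscle. Its window on the plus strand is chr10:53337436-53337666, and the match begins 120 bases before the gene.
Pln: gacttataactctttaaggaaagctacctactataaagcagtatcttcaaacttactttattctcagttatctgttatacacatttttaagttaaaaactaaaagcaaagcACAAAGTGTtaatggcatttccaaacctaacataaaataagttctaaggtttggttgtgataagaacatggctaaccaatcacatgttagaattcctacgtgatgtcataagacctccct

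Mucous cell genes were lower in Dex than in CPX, and none had its highest level in control. Of 17 measured members of 20 listed, 7 were at least 2-fold lower in Dex, none was 2-fold higher, and the median was -0.78. Clca1, a secreted goblet cell protein, was at 1.61 CPM in the control, 7.12 with PM10, 313 with PM10/OVA, 5154 in CPX and 1633 in Dex. Muc5ac, the gel-forming mucin of induced goblet cells, was at 4.09, 11.02, 30.6, 231 and 92.9 CPM. Both treated libraries therefore exceeded PM10/OVA for these 2 genes, CPX the more. The Dex level was 3.16-fold lower than CPX for Clca1 (3.11 to 3.21) and 2.49-fold lower for Muc5ac (2.32 to 2.67).

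Fcgbp, a protein of the mucus gel, was at 36.3 CPM with PM10/OVA, 283 in CPX and 119 in Dex, in the pattern of Clca1. Itln1, an intelectin lectin secreted with mucus, was at 3.91, 40.2 and 9.17 CPM, and was 4.38-fold lower in Dex than in CPX (3.56 to 5.44). Slc26a4, the anion exchanger pendrin, and Agr2, a disulfide isomerase that folds mucins, departed from that pattern. Slc26a4 was at 90.7 CPM with PM10/OVA, 121 in CPX and 31.4 in Dex, and Agr2 at 26.1, 23.2 and 9.17, so that Dex alone was below PM10/OVA by more than 2-fold. Serpinb2, a serine protease inhibitor, was at 3.19 CPM in CPX and 0.757 in Dex. The transcription factor of goblet cell differentiation, Spdef, differed little (8.14 CPM in CPX, 6.90 in Dex, ratio 1.18 with an interval of 0.875 to 1.60). Muc5b, the mucin present in resting airways, had a log2 ratio of -0.37. The 2 members above 0 were Bpifb1 (0.59) and Creb3l1 (0.01).

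**Figure D2:**
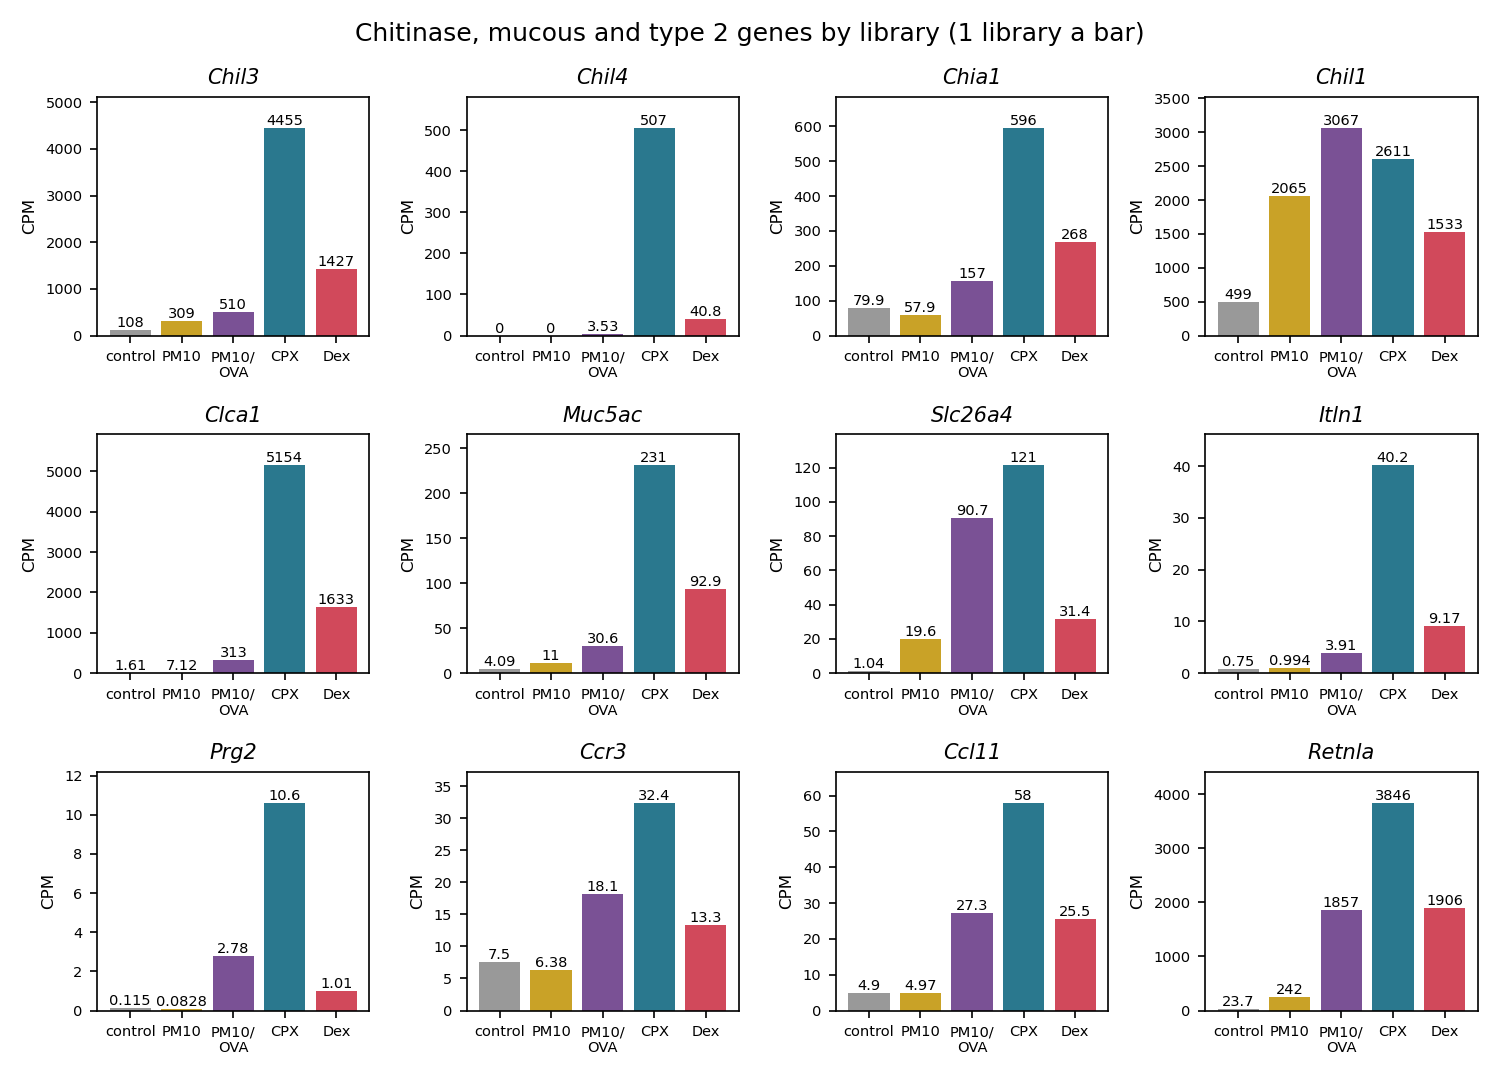
CPM of 12 chitinase, mucous, eosinophil and macrophage genes in the 5 libraries, 1 library a bar, each panel with its own linear axis from 0. CPX is the highest bar for 11 of the 12 genes, Chil1 being highest in PM10/OVA, and Dex is below CPX in every panel.

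Most eosinophil genes were also lower in Dex. Of 10 measured members of 14 listed, 4 were at least 2-fold lower and none higher, with a median of -0.64. Il5ra, Ear1 and Ltc4s of this list differed little (-0.05, -0.01 and 0.01). Prg2, the major basic protein of eosinophil granules, was at 0.115 CPM in the control, 0.0828 with PM10, 2.78 with PM10/OVA, 10.6 in CPX and 1.01 in Dex, from 133 counts in CPX and 12 in Dex. Its Dex level was 10.5-fold lower than CPX (5.83 to 20.9) and also below PM10/OVA. Ccr3, the eotaxin receptor, was 2.44-fold lower in Dex (2.03 to 2.95), at 32.4 CPM in CPX and 13.3 in Dex. Alox15, a lipoxygenase of eosinophils and macrophages, was at 47.0 and 22.1 CPM, and the granulocyte transcription factor Cebpe at 7.59 and 3.20. Siglecf, shared by eosinophils and alveolar macrophages, had a ratio of -0.63. Epx, eosinophil peroxidase, was below the level for measured genes, with 13 counts in CPX and 1 in Dex (a ratio of 12.3 with an interval of 1.85 to 525).

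Among type 2 cytokines, receptors and eotaxins, 2 of 17 measured members of 25 listed were 2-fold lower in Dex and none higher, with a median of -0.23. They were Ccr3 and Ccl11, the eotaxin that draws eosinophils, at 27.3 CPM with PM10/OVA, 58.0 in CPX and 25.5 in Dex. Gata3, the regulator of type 2 lymphocytes, was close to the bound at 14.9 and 7.32 CPM (-0.93). The epithelial cytokine genes Il33 (-0.17) and Tslp (0.27) were within 2-fold. Il4, Il5 and Il13 were too low to be measured. Il13 had 15 counts in CPX and 2 in Dex (a ratio of 7.12 with an interval of 1.66 to 64.2), Il5 had 4 and 1, and Il4 had 7 and 11. Of 11 measured mast cell and basophil genes none passed 2-fold, 8 were above 0 and 3, Kit, Ms4a2 and Hdc, below. Their median was 0.26, but 0.034 over the 4 with a mean of at least 5 CPM.

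Of 17 measured genes of alternative macrophage activation, 3 were 2-fold lower in Dex, 6 were above 0 and the median was -0.36. The 3 were Retnla, Retnlg, which is also on the neutrophil list, and Alox15, which is also on the eosinophil and eicosanoid lists. Retnla (RELM-alpha), induced by IL-4 and IL-13 in macrophages and epithelium, was at 23.7 CPM in the control, 242 with PM10, 1857 with PM10/OVA, 3846 in CPX and 1906 in Dex. Dex and PM10/OVA were therefore nearly level, and CPX was 2.02-fold above Dex (1.99 to 2.05). Its neighbour in the family, Retnlg, was at 149 CPM in CPX and 55.0 in Dex, and the 2 genes could share reads. Arg1, arginase of such macrophages, stood apart from these in that both treated libraries were far below PM10/OVA, at 104 CPM with PM10/OVA, 10.6 in CPX and 5.63 in Dex. Cd163, a scavenger receptor that glucocorticoids are known to raise, was higher in Dex by 0.93. Among 21 alveolar macrophage genes 2 were 2-fold higher in Dex, Marco, a scavenger receptor for particles, and Fabp4 (1.48), which is also on the fat list, and 1 was 2-fold lower, Chil3 (-1.64). Marco was at 2.02 CPM in the control, 23.8 with PM10, 20.3 with PM10/OVA, 7.11 in CPX and 32.6 in Dex, so that CPX was the lowest of the 4 exposed libraries. The Dex level was 4.59-fold higher (3.64 to 5.85). Of the same list, 15 of 21 members lay below 0. In the monocyte and interstitial macrophage list, Spp1 (osteopontin) was the 1 member of 22 past 2-fold, at 186 CPM in CPX and 76.7 in Dex.

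Interferon-induced genes were lower in Dex almost throughout. In the type I interferon list 28 of 29 members were below 0, 5 of them past 2-fold, with a median of -0.72. In the list of CXCR3 ligands and interferon gamma-induced genes 18 of 19 measured members were below 0, 4 past 2-fold, with a median of -0.71. Iigp1, a GTPase that attacks the vacuoles of intracellular parasites, was at 56.8 CPM in the control, 154 with PM10, 108 with PM10/OVA, 99.2 in CPX and 32.1 in Dex. Gbp4, a guanylate-binding protein, was at 172, 200, 192, 229 and 75.2 CPM. For both genes the Dex library was the lowest of all 5. The Dex level was 3.09-fold lower than CPX for Iigp1 (2.75 to 3.47) and 3.04-fold lower for Gbp4 (2.82 to 3.28). Cxcl10, the chemokine that draws CXCR3-bearing T cells, was at 25.2 CPM with PM10, 14.3 with PM10/OVA, 3.19 in CPX and 0.420 in Dex, from 40 and 5 counts in the last 2. Isg15, a ubiquitin-like protein, was at 119 CPM with PM10, 29.3 with PM10/OVA, 21.1 in CPX and 8.75 in Dex. Mx2, an antiviral GTPase, was at 21.1, 3.03, 4.55 and 1.26 CPM in these libraries. Of the 5 type I members past 2-fold, Ifit1 (-1.01), Zbp1 (-1.01) and Dhx58 (-1.06) lay close to the bound, and with a pseudocount of 5 none of the 29 passed it.

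Chemokine and neutrophil genes lay on both sides, with more of them lower in Dex. Cxcl5, an epithelial chemokine that draws neutrophils, was at 0.231 CPM in the control, 14.4 with PM10, 73.4 with PM10/OVA, 28.0 in CPX and 6.22 in Dex, and was 4.50-fold lower in Dex than in CPX (3.50 to 5.87). Both treated libraries were below PM10/OVA, Dex the more. It and Osm, oncostatin M, were the 2 of 15 measured members of the list of neutrophil-attracting chemokines and inflammatory cytokines that were 2-fold lower, and none was higher. Ccl2, the monocyte chemokine, was at 23.2 CPM with PM10/OVA, 3.83 in CPX and 1.68 in Dex. In the list of 13 monocyte-attracting chemokines and receptors that holds Ccl2, none passed 2-fold, and 11 were below 0. In the neutrophil list, S100a8, a subunit of calprotectin, was at 130 CPM with PM10/OVA, 107 in CPX and 47.5 in Dex, while Ltf, lactoferrin of neutrophil granules and airway glands, went the other way at 88.9, 79.0 and 305. Of 15 measured members, Ltf was the 1 that was 2-fold higher, and S100a8 and Retnlg were the 2 that were 2-fold lower.

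Lymphocyte, antigen presentation and cell cycle genes lay below 0 in Dex with few members past 2-fold. B cell genes had a median of -0.61, with 16 of 17 below 0. Of these, Fcer2a, the low-affinity IgE receptor CD23, was at 40.1 CPM with PM10/OVA, 18.7 in CPX and 6.39 in Dex, and Cd79b, a B cell receptor subunit, at 62.1, 46.7 and 21.9. Jchain, which joins secreted IgA and IgM, was the plasma cell member past 2-fold, at 74.4 CPM with PM10/OVA, 942 in CPX and 377 in Dex, with both treated libraries far above the other 3. In class II antigen presentation 13 of 14 members were below 0 and none passed 2-fold (median -0.55). Its most abundant member, the invariant chain Cd74, was at 820 CPM in the control, 1543 with PM10, 1434 with PM10/OVA, 1521 in CPX and 964 in Dex. Of 30 cell cycle genes 29 were below 0, none past 2-fold (median -0.44). Cdk1, the mitotic kinase, was at 7.07 CPM with PM10/OVA, 7.11 in CPX and 3.28 in Dex. T cell genes had a median of -0.16 over 21 members, none past 2-fold, and in the cytotoxic T and NK cell list only Tbx21 (T-bet) of 15 measured members passed, at 4.23 CPM in CPX and 1.43 in Dex.

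Genes known to be induced by glucocorticoids were mostly higher in the Dex library, but some textbook targets were level in the 2 libraries. Of 35 measured members of 37 listed, 31 were above 0, 8 at least 2-fold higher and none 2-fold lower, with a median of 0.33. Pdk4, the kinase that shuts glucose out of the citric acid cycle, was at 29.1 CPM in the control, 20.4 with PM10, 10.7 with PM10/OVA, 9.34 in CPX and 28.3 in Dex. Errfi1, a feedback inhibitor of the EGF receptor, was at 215, 248, 155, 87.1 and 242 CPM. Per1, a period gene of the circadian clock, was at 154, 212, 91.9, 62.0 and 150 CPM. For these 3 genes the Dex level was near that of control, and CPX was the lowest library. The Dex level was 3.02-fold higher than CPX for Pdk4 (2.44 to 3.77), 2.78-fold for Errfi1 (2.59 to 2.98) and 2.42-fold for Per1 (2.22 to 2.64).

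Cdkn1a, the cell cycle inhibitor p21, reached its highest level in Dex, at 119 CPM against 71.7 with PM10/OVA and 47.7 in CPX. The other members past 2-fold were Angptl4, a lipase inhibitor (69.0 CPM in Dex, 29.9 in CPX), the transcription factor Klf15 (53.3 and 23.9), the mTOR inhibitor Ddit4 (62.2 and 28.9) and the glycosyltransferase Galnt15 (15.2 and 6.71). Tsc22d3, the leucine zipper protein GILZ, was at 355 CPM in the control, 481 with PM10, 278 with PM10/OVA, 223 in CPX and 413 in Dex, and its Dex level was 1.85-fold above CPX (1.77 to 1.94). Fkbp5, the co-chaperone that limits receptor activity, was at 14.9, 24.9, 27.1, 30.8 and 34.7 CPM, and its ratio of 1.13 had an interval that included 1 (0.978 to 1.30). Zbtb16 (22.2 CPM in CPX, 21.2 in Dex) and the phosphatase gene Dusp1 (329 and 357) were likewise close in the 2 libraries. Lcn2, lipocalin 2, an acute-phase protein that is also on this list, was 1.55-fold lower in Dex.

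**Figure D3:**
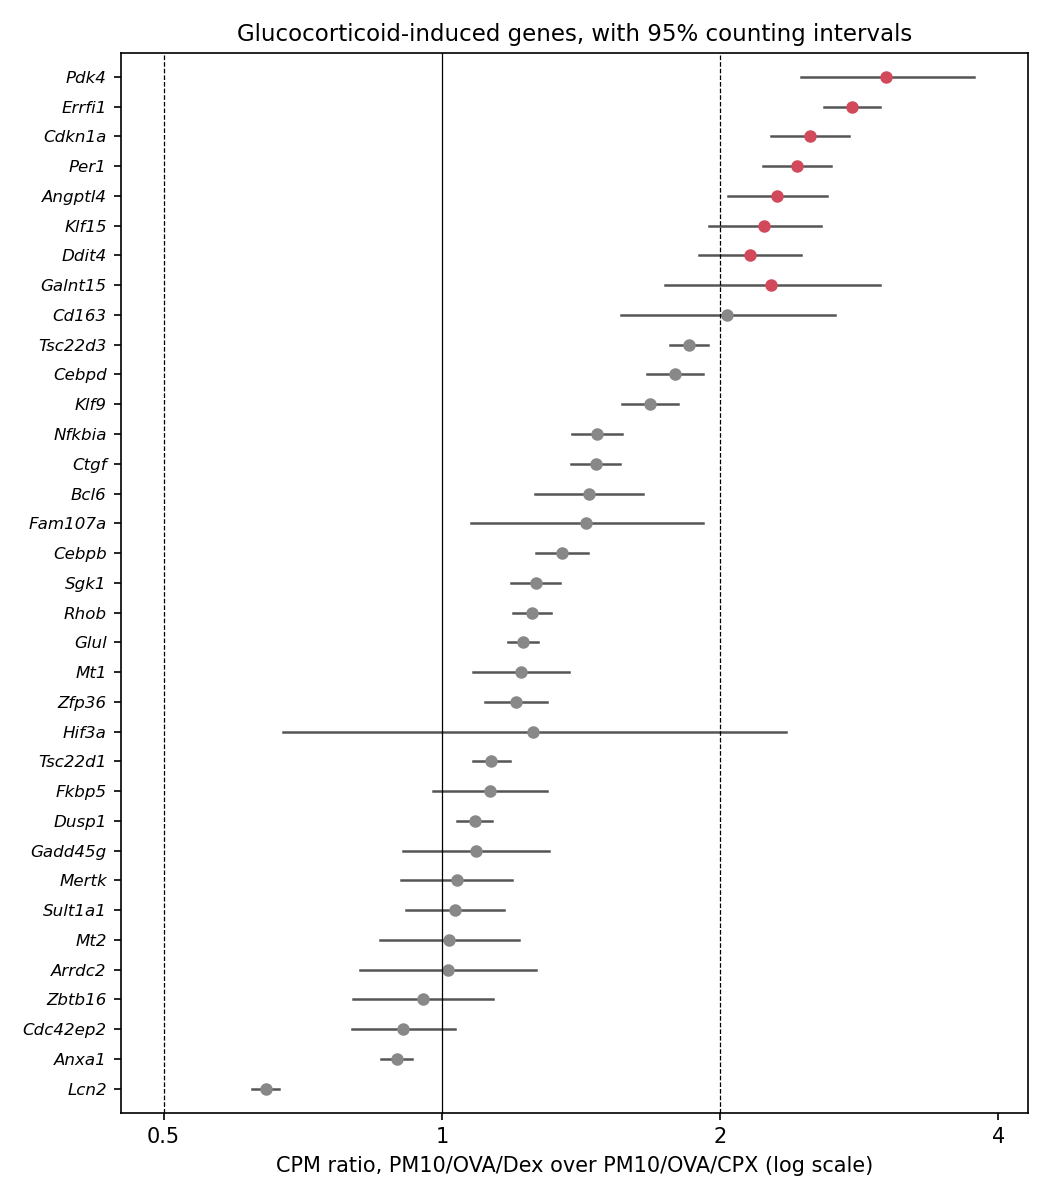
CPM ratio of Dex over CPX for the 35 measured glucocorticoid-induced genes on a log axis, points with 95% counting intervals as lines, red where at least 2-fold higher on log2(CPM + 1). The 8 red genes run from Galnt15 to Pdk4, and Fkbp5, Zbtb16 and Dusp1 lie near a ratio of 1.

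The receptor gene Nr3c1 was at 342 CPM in the control, 312 with PM10, 267 with PM10/OVA, 264 in CPX and 252 in Dex, a difference of -0.07 between the 2 treated libraries. Of 15 measured genes of the receptor and its handling, 13 were above 0 and none past 2-fold. The chaperones that hold the free receptor were among them, with Hsp90aa1 at 583 CPM in CPX and 854 in Dex and Fkbp4 at 149 and 202. In the clock list Per1 was the 1 member of 19 past 2-fold, and the median was -0.01.

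Heat-shock genes held the 2 highest ratios of the whole comparison on log2(CPM + 1), though not the highest CPM ratios. Hspa1a was at 36.7 CPM in the control, 50.7 with PM10, 6.31 with PM10/OVA, 6.23 in CPX and 136 in Dex. Hspa1b was at 44.4, 71.7, 7.82, 9.34 and 188 CPM. Both encode inducible HSP70, are near-identical and may not be separate values. For both, Dex was the highest library, control and PM10 were intermediate, and CPX and PM10/OVA were low. The Dex level was 21.8-fold higher than CPX for Hspa1a (17.4 to 27.7) and 20.2-fold for Hspa1b (16.7 to 24.5). The co-chaperone Dnajb1 (171 CPM in Dex, 45.6 in CPX), the HSP110 gene Hsph1 (98.8 and 36.5) and the small heat-shock gene Hspb1 (129 and 51.7) were the other 3 of 18 members past 2-fold. In all, 17 of the 18 were above 0, with a median of 0.55. Among 24 immediate-early genes, which respond quickly to many stimuli, 4 were 2-fold higher in Dex. The nuclear receptor gene Nr4a3 was at 17.8 CPM in the control, 14.7 with PM10, 7.82 with PM10/OVA, 1.76 in CPX and 19.0 in Dex. Nr4a2, Atf3 and Maff were the other 3, and Cyr61, a matrix-associated YAP target, was 2-fold lower, at 137 CPM in CPX and 64.1 in Dex.

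Club cell and large airway genes were for the most part higher in Dex, whereas ciliated cell genes (18 measured, median -0.05) and the mucous genes above were not. Of 16 club cell genes, 5 were 2-fold higher, 15 were above 0 and the median was 0.44, and 11 had their highest level in control. Cyp2a5, a cytochrome P450, was at 297 CPM in the control, 35.5 with PM10, 33.2 with PM10/OVA, 10.6 in CPX and 76.7 in Dex, 7.22-fold higher in Dex than in CPX (6.01 to 8.73). The secretoglobin Scgb3a2 was at 603, 356, 317, 264 and 595 CPM, while Scgb3a1 was at 360, 166, 244, 438 and 929. CPX was thus the lowest library for the first 2 genes and above the 3 libraries with neither agent for Scgb3a1. Pon1, the paraoxonase, was at 9.34 CPM in CPX and 32.4 in Dex, 3.47-fold higher. Scgb1a1, the most abundant club cell transcript, was at 20501 CPM in CPX and 25101 in Dex, within 2-fold. Beside them stood Cyp2e1, another P450, at 5.35 and 26.2 CPM, and Sult1d1, a sulfotransferase, at 3.75 and 21.4.

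Of the 13 measured genes of large airways, glands and basal cells (21 listed), 5 were 2-fold higher in Dex, with a median of 0.45. Bpifa1 (SPLUNC1), an antimicrobial protein of the upper and large airways, was at 1264 CPM in the control, 74.5 with PM10, 88.8 with PM10/OVA, 60.1 in CPX and 464 in Dex. Its Dex level was 7.71-fold that of CPX (7.15 to 8.33). The keratin gene of basal cells, Krt5, was at 6.57, 1.16, 0.126, 0 and 3.45 CPM, at least 14.4-fold higher in Dex when 3 counts are set against the 0 in CPX (lower limit of the interval, 11.2). Its relative Krt15 was at 0.878 CPM in CPX and 6.22 in Dex. Outside the list, Bpifa6 of the same family as Bpifa1 had 0 counts in CPX and in PM10/OVA and was at 11.9 CPM in Dex, at least 49.5-fold higher (lower limit, 39.7). Reg3g, an antibacterial lectin, was at 116 CPM in CPX and 244 in Dex. Bpifa1, Krt5 and Krt15 share the order of control highest and Dex second, and the summed level of the list was 2639 CPM in the control, 2092 in Dex and 1177 to 1450 in the other 3.

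Genes of most tissues that border the lung were higher in Dex, but those of red cells and of thymus and lymph node were not. Of 70 measured genes in the lists for heart muscle, fat, cartilage, skeletal muscle, mesothelium, red cells, thymus and lymph node, and liver and oesophagus, 38 were among the 151 higher in Dex and none among the 105 lower. Heart muscle genes, which mouse lung also expresses in the sleeves of its pulmonary veins, summed to 3983 CPM in the control, 844 with PM10, 352 with PM10/OVA, 307 in CPX and 800 in Dex, and 14 of 19 measured were 2-fold higher in Dex than in CPX (median 1.44). Fat genes summed to 951, 160, 132, 114 and 358 CPM, and 12 of 14 were 2-fold higher (median 1.42). Cartilage genes summed to 167, 39.8, 23.6, 50.2 and 71.1 CPM, and 5 of 9 were 2-fold higher (median 1.07, or 1.02 with members at 0 counts set to 3). Control was the highest library for 19 of 19 measured heart, 13 of 14 fat and 8 of 9 cartilage genes. Listed genes with 0 counts numbered 3 in CPX and 0 in Dex for fat, 4 and 1 for cartilage, and 1 and 2 for heart. With a pseudocount of 5 the members past 2-fold were 9 of 19 for heart, 6 of 14 for fat and 0 of 9 for cartilage. Skeletal muscle genes summed to 105 CPM in CPX and 128 in Dex, with 2 of 6 measured past 2-fold.

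Nppa, atrial natriuretic peptide, was at 595 CPM in the control, 4.64 with PM10, 1.07 with PM10/OVA, 0.958 in CPX and 19.8 in Dex. Car3, the carbonic anhydrase of fat and muscle, was at 253, 29.8, 15.2, 12.4 and 74.8 CPM. Aggrecan of cartilage, Acan, was at 35.6, 3.31, 0.126, 0 and 2.44 CPM, and Lep and Col9a2 were also at 0 in CPX and above 0 in Dex. Control stood above all other libraries for these genes and Dex above PM10/OVA and CPX. Mesothelial genes gave another order, with 505 CPM in the control, 415 with PM10, 459 with PM10/OVA, 302 in CPX and 450 in Dex, so that CPX alone was low. Msln, mesothelin, was at 24.7 CPM in CPX and 60.1 to 85.4 in the other 4. Red cell genes (median -0.19 over 8 measured) and the 4 measured thymus and lymph node genes (median -0.36) had no member past 2-fold. Of the 10 liver and oesophagus genes 1 was measured. The part that attached tissue or larger airway had in the differences of the airway, heat-shock or glucocorticoid-induced genes was not tested. Without all genes of these lists, 113 genes were 2-fold higher in Dex and 105 lower.

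**Figure D4:**
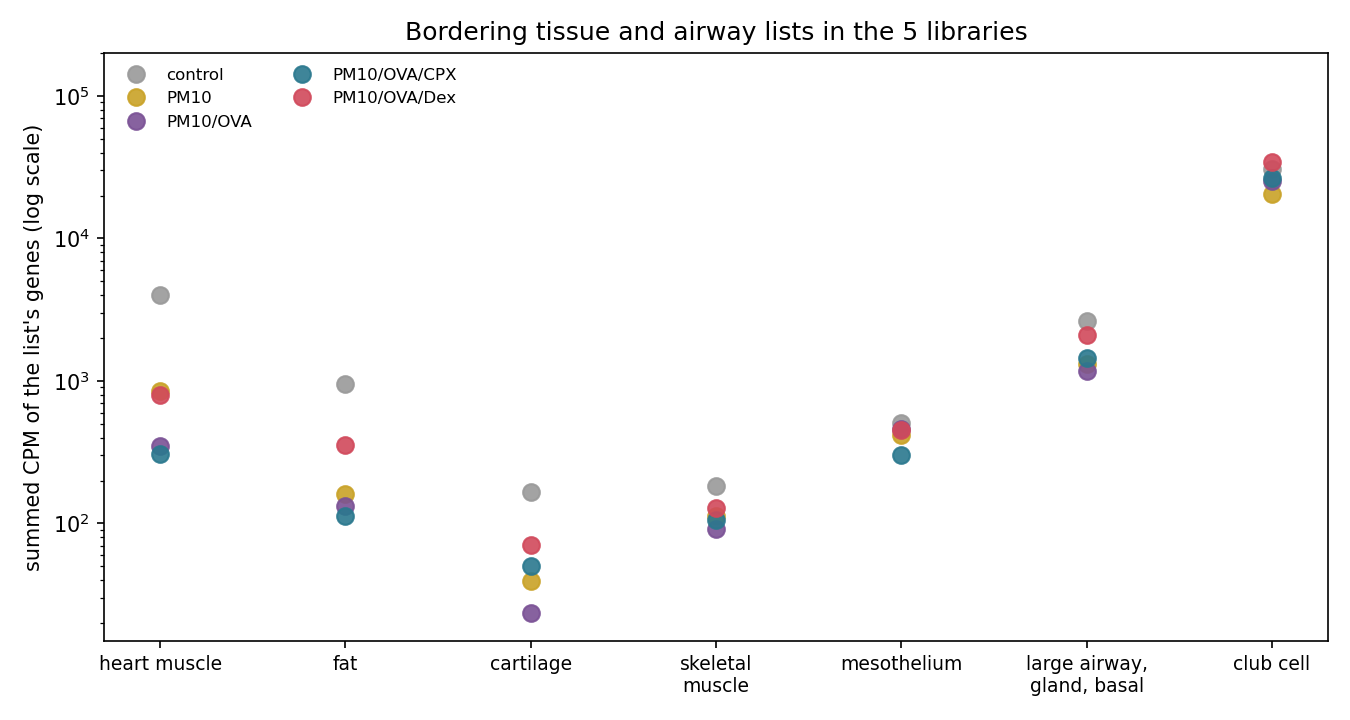
Summed CPM (log axis) of the genes of 5 bordering tissue lists and 2 airway lists, 1 point per library. Control is highest in 6 of the 7 columns and Dex is above CPX in all 7.

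**Figure D5:**
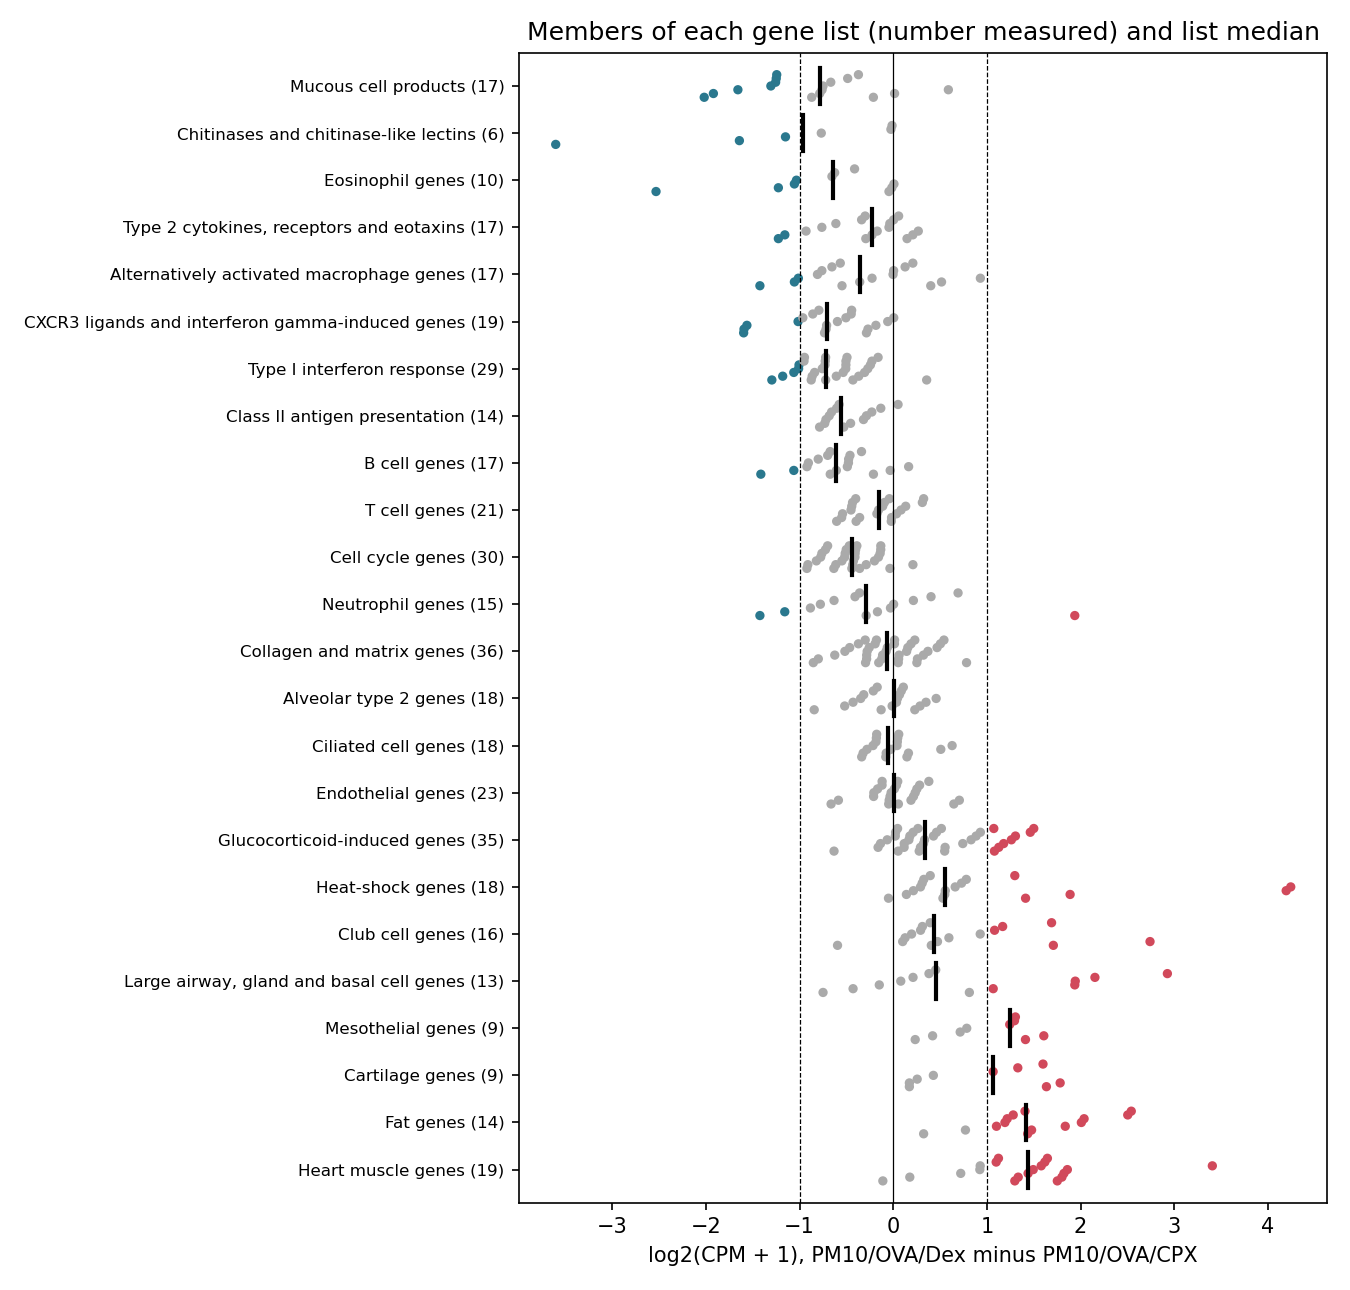
Log2 ratio, Dex minus CPX, of each measured member of 24 gene lists (number measured in brackets), with the list median as a black bar and dashed lines at 2-fold. The medians of the mucous, chitinase, eosinophil and interferon lists lie left of 0, and those of heart muscle and fat lie farthest right. Alveolar type 2, ciliated and endothelial medians lie at 0.01, -0.05 and 0.01.

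Structural lung genes and matrix genes were close in the 2 libraries. Alveolar type 2 (18 members, median 0.01), alveolar type 1 (15, 0.17), ciliated (18 measured, -0.05), endothelial (23, 0.01) and fibroblast genes (19, 0.20) had no member past 2-fold. Since the series title speaks of fibrosis, the 36 collagen and matrix genes were also read, and none passed 2-fold (median -0.07). Fibronectin, Fn1, was at 460 CPM in the control, 606 with PM10, 620 with PM10/OVA, 685 in CPX and 393 in Dex. Of 34 measured TGF-beta ligands, receptors and targets, 25 were above 0 and none past 2-fold (median 0.24). Mmp12, the macrophage elastase, was at 5.59 CPM in the control, 132 with PM10, 188 with PM10/OVA, 383 in CPX and 214 in Dex, 1.79-fold lower in Dex than in CPX (1.70 to 1.88). Among 25 metalloproteinases and inhibitors Mmp13 was the 1 past 2-fold, at 3.35 and 0.925 CPM. The ribosomal protein list, whose members are short and abundant, had 27 of 28 members below 0 with a median of -0.27. Across 13781 genes with an annotated length the log2 ratio was higher for longer transcripts (Spearman's rho 0.22, across genes, which are not replicates). Its median was -0.12 in the shortest of 5 equal length classes and 0.08 in the longest.

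Of the named genes with the lowest ratios, several belong to no list above. Amd1 had the lowest, at 22.2 CPM in CPX and 0.0577 to 0.0841 in the other 4 libraries, a ratio of 264 with an interval of 47.0 to 10463 from 278 counts and 1 count. Its close copy Amd2 was at 59.0 CPM in CPX and 93.1 to 108 in the others, so the 2 symbols, which can share reads, stood on opposite sides of the other libraries in CPX. In Dex the pseudogene Atp6v0c-ps2 was at 10.8 CPM against 0 in CPX and 0 to 0.249 elsewhere, at least 45.3-fold higher (lower limit, 36.3), while its parent Atp6v0c was at 210 and 193 CPM. Cyp26b1, which degrades retinoic acid, was at 364 CPM in the control, 15.2 with PM10, 40.4 with PM10/OVA, 138 in CPX and 24.6 in Dex. It was 5.61-fold lower in Dex than in CPX (4.95 to 6.37), with control the highest of all. Sprr2a3, a cornified-envelope protein of stressed epithelium, was at 0 CPM in the control and PM10, 1.39 with PM10/OVA, 18.4 in CPX and 1.93 in Dex. Cd207 (langerin), a lectin of some dendritic cells, was at 7.35 CPM in CPX and 1.51 in Dex. Serpina3g and Serpina3f, protease inhibitors that interferons are known to induce, were 3.17-fold and 3.14-fold lower in Dex, and they belong to a family of close copies.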

How the data were processed

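Whole-lung RNA from 5 groups of female BALB/c mice was sequenced, 1 library a group. Trizol extraction and the NEBNext Ultra II Directional kit were used, per the labels' protocols. The aligner was TopHat and the build mm10, per the submitters' processing notes. Its version, the counting tool, the annotation and the strand setting were not given in the sources used here. As deposited by the authors, the values are whole-number counts per gene symbol without normalization, 1 file per library. Since it is unknown how reads shared by several genes were counted, near-identical genes (among them Chil3 and Chil4, Hspa1a and Hspa1b, Amd1 and Amd2, and the Ear, Retnl, Bpifa and Serpina3 genes), overlapping genes and antisense genes are uncertain.

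Counts were scaled to CPM with edgeR 4.0.16 (R 4.3.3) by TMM factors from the 5 libraries, which ran from 0.989 to 1.02. A single count was worth 0.0577 to 0.0841 CPM. Measured genes had a mean of at least 1 CPM. Log2 ratios are of log2(CPM + 1), a scale on which low genes differ by less than their CPM ratio. Folds are CPM ratios with exact (Clopper-Pearson conditional) 95% intervals from the counts (scipy 1.17.1). Against 0 counts, 3 counts were used as a floor. Intervals and floors cover counting error only. With 1 library a group no p-value, standard error or set test was computed, and a list is described by its counts and its median, over measured members only. The log2 ratios and counting intervals were tested on simulated counts, with the library scaling taken as given and not itself tested. The simulated counts held counting error only, which the intervals assume. That checked the computation and not whether the intervals suit these data.

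Members and lists were chosen with earlier results of these data known. Genes named are the 20 highest and 20 lowest ratios outside predicted models, clones, receptor segments and small RNAs, and the 10 largest CPM differences. To these were added 5 members of the chitinase family (Chit1, Chia1, Chil1, Chil3 and Chil4) and textbook glucocorticoid targets. In each list described, the 6 largest ratios, the most abundant member and any past 2-fold were taken, of which the text gives a part. Coordinates, lengths and GC content are from GENCODE M21 (GRCm38), and upstream sequences from RefSeq (GRCm38.p6), matched by symbol for 10809 measured genes. Outside that rule, Amd2, Atp6v0c, Bpifb1, Creb3l1, Muc5b, Spdef, Epx, Hbb-bs, Il4, Il5 and Il13 were chosen after their values were seen, and 4 genes mark the 2-fold bounds. Alternatives were other pseudocounts, filters, scalings (DESeq2 1.42.0 size factors, library totals, TMM over the 2 treated libraries), a length and GC trend removed, a stricter call by interval, and leaving out bordering tissue genes. A member of the club cell list is not reported here by name.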

Additional observations from a re-analysis of the deposited data

How the results depend on the processing

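The counts of genes past 2-fold depended on how low levels were treated. With a pseudocount of 0.25 in place of 1, genes at least 2-fold higher in Dex than in CPX numbered 275, and genes at least 2-fold lower in Dex than in CPX numbered 224. With a pseudocount of 5 there were 56 and 30. Restricted to a mean CPM of 5 or more, 58 were lower in Dex and 102 higher. Where the whole 95% counting interval had to lie past 2-fold, 49 were lower and 107 higher. The other settings were other scalings, no filter, the removed length and GC trend, and leaving out bordering tissue genes. Under these, 113 to 162 genes were higher and 92 to 115 lower, within 1.5 times the reported counts. Leaving out bordering tissue genes only drops listed genes, 38 of the 151 and none of the 105, so its counts were fixed in advance. Of 55 list medians, those of the circadian clock, endoplasmic reticulum stress and glycolysis lists, each within 0.02 of 0, changed sign under the 5 CPM filter, DESeq2 size factors, TMM over the 2 treated libraries or the removed trend, at most 2 of them under any 1 of these. Without a filter the median of the thymus and lymph node list was 0, and under the other alternatives the rest kept their sign. The fold of no named gene changed direction under another scaling, and none moved by more than 1.01 times. Since a scaling multiplies every CPM ratio by the same factor, this describes the factors and not any single gene. With a pseudocount of 5 the members past 2-fold also dropped in other lists. Among these were mucous (7 to 5), glucocorticoid-induced (8 to 6) and alternative macrophage activation genes (3 to 2). The drop was from 5 to 2 for mesothelial, 5 to 3 for large airway, and 4 to 2 for eosinophil and for CXCR3 ligand and interferon gamma genes. For B cell and for skeletal muscle genes it was from 2 to 1. The median of the cartilage list ran from 0.30 with a pseudocount of 5 to 2.20 with 0.25. That of ribosomal proteins was -0.17 after the length and GC trend was removed. With that trend removed, 8 of the 55 list medians moved by more than 0.1. Toward 0 went type 2 cytokine (-0.23 to -0.09), neutrophil (-0.29 to -0.12) and eosinophil genes (-0.64 to -0.51). So did monocyte-attracting chemokines and cytotoxic T and NK cell genes (both -0.44 to -0.27) and mitochondrial respiratory chain genes (-0.20 to -0.04). Collagen and matrix (-0.07 to -0.17) and mast cell and basophil genes (0.26 to 0.41) moved away from 0. No paired analysis was possible because each group is 1 library. Depth limits what can be said of the cytokine genes and of genes with few counts.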

Other observations

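Other gene groups were read in the same way. Of 19 measured eicosanoid synthesis enzymes, 1 was 2-fold lower in Dex than in CPX (Alox15) and 1 higher (Pla2g5, from 1 count in CPX and 14 in Dex), and the 2 cyclooxygenases lay on opposite sides, with Ptgs2 at 27.5 CPM in CPX and 41.0 in Dex and Ptgs1 at 79.8 and 54.3. Of 23 measured cholesterol and fatty acid synthesis genes, 15 were below 0 with a median of -0.32, among them the sterol enzymes Lss (38.9 CPM in CPX, 24.6 in Dex) and Cyp51 (62.6 and 41.4) and the desaturase Scd1 (1238 and 690). Thrsp, a lipogenic gene also on the fat list, was the 1 member 2-fold higher. NRF2 targets (23 measured, median -0.02), glycolysis and hypoxia genes (22, -0.01) and NF-kB subunits and inhibitors (16, -0.01) had no member past 2-fold. Within the last list Tnip3, a feedback inhibitor of NF-kB, was at 8.38 CPM in CPX and 3.78 in Dex, and Nfkbia, a known glucocorticoid target that encodes I-kappa-B alpha, at 137 and 202.

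Acute-phase and complement genes (21 measured, median -0.19) had no member past 2-fold between Dex and CPX. Against PM10/OVA, which both comparisons share, their medians were -0.51 in Dex and -0.52 in CPX. Saa3, serum amyloid A3, was at 2.19 CPM in the control, 463 with PM10, 694 with PM10/OVA, 67.0 in CPX and 44.7 in Dex. Haptoglobin, Hp, was at 463 CPM in CPX and 797 in Dex, against 979 in PM10/OVA. Hamp, hepcidin of iron handling, was the 1 of 19 metallothionein, iron and heme genes past 2-fold, at 18.6 CPM in the control, 1.04 in CPX and 4.62 in Dex. Cxcl13, the B cell chemokine, was at 56.2 CPM with PM10/OVA, 10.5 in CPX and 17.4 in Dex, and so lay on the other side from the B cell genes described above.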
